A study of Mus musculus with 2 samples.

Results

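Trp53, the gene for the tumor suppressor p53, and 9 of the best known genes that p53 switches on (Mdm2, Cdkn1a, Ccng1, Bax, Bbc3, Fas, Phlda3, Sesn1 and Zmat3) were followed in mouse sarcoma cells that lack p53. The genes were picked by symbol, and all 10 have a row among the 25509 genes of the deposited count table. The study silenced a circular RNA, circCsnk1g3, in these cells and sequenced their poly(A) RNA to see which pathways responded. The cells were C57BL/6 mesenchymal stem cells with a p53 knockout (p53-/-) that overexpress cyclin E1 (Ccne1+) from a retroviral vector and carry a dsRED label. They had grown as a subcutaneous tumor, had been seeded in the lungs of further recipient mice, and were recovered from lung foci before they were transduced with a lentiviral hairpin. The control hairpin gave the library of shCTR cells and the hairpin against circCsnk1g3 that of shcircCsnk1g3 cells, so both share the p53 knockout, the Ccne1 transgene and the passage through the lung. Both come from 1 engineered cell model, there was 1 library per condition, and no library of p53-proficient cells was analysed.

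p53 is a transcription factor that is kept scarce by the ubiquitin ligase Mdm2 and accumulates after DNA damage and other stresses. It then binds response elements near its target genes, whose products halt the cell cycle, start cell death, repair DNA or adjust metabolism, and Mdm2 is itself a target, which closes a feedback loop. Loss of p53 is frequent in soft-tissue sarcoma, and many of its targets keep a basal level without p53 because other transcription factors also act on them.

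The p53 response element is a pair of decamers, each with a fixed C and a fixed G, and the closest matches among the members are shown so that its letters can be seen. RefSeq promoter windows (GRCm38.p6, 250 bases before to 50 bases after each annotated start) were on hand for 9 of the 10 genes. They were searched on both strands for 2 adjoining decamers of the published consensus without a spacer, with all 4 fixed bases required. The best matches belong to Cdkn1a and Ccng1, each with 19 of 20 positions, a score reached by 0.0670% of the 32851 windows and by 7 of the 9587 tested genes that have one. The site of Cdkn1a, chr17:29090928-29090947 on the plus strand, begins 51 bases before a transcription start. That of Ccng1, chr11:40755462-40755481 on the minus strand, begins 195 bases before the start, and neither lies within an annotated gene of GENCODE M21. Written 5′ to 3′ with the fixed bases in capitals, they read:
Cdkn1a: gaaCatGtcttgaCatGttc
Ccng1: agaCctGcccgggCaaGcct
Trp53, Bbc3 and Sesn1 had 17 of 20 positions at best, a score that 1.38% of all windows reached or passed. In a second promoter window of Cdkn1a, chr17:29093519-29093818, the best match had 13 of 20 positions, which 39.5% of all windows reached or passed. A match describes these letters only, and elements outside the windows were not searched.

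Depth was similar, with 38792143 counts for shcircCsnk1g3 cells and 42709996 for shCTR cells. Values are given as counts and as CPM (counts scaled by TMM to a common library size), and fold changes are log2 ratios of shcircCsnk1g3 over shCTR with a prior count of 2. Each is followed by its 95% interval, taken from the counts by the exact Clopper-Pearson method. The interval covers counting error alone and compares these 2 libraries, not the conditions, so no p-value was computed and a difference between cultures could not be set apart from an effect of the hairpin. Genes were tested where either library held 10 counts or more, and over these 12941 the median log2 fold change was 0.00. For the 10662 well counted genes, those whose counts summed to 200 or more, it ran from -0.46 at the 5th percentile to 0.40 at the 95th.

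The cell label and the engineered genes were looked at first. Of 12 mesenchymal markers, 11 had more than 3 counts, all but Thy1. The summed level was 11288 CPM in shcircCsnk1g3 cells and 11902 CPM in shCTR cells, most of it Vim with 225330 and 282350 counts. Of the 11 tested, 3 were higher and 8 lower in shcircCsnk1g3 cells, with Ly6a past 1.5-fold lower at -0.69 (-0.77 to -0.61). Of 14 leukocyte markers, 10 were at 0 in both libraries and Ptprc, the pan-leukocyte antigen, was at or under 3 counts, with summed levels of 2.30 and 3.86 CPM, most of it Cd68 with 87 and 155 counts. Of 10 lung epithelium markers, 5 had more than 3 counts, Epcam and the surfactant genes were at or under 3, and the sums were 3.09 and 1.87 CPM, most of it Krt8 with 92 and 46 counts. The part of these markers in the results was not tested. Of 8 endothelial markers, 3 had more than 3 counts, with sums of 0.485 and 0.757 CPM. Ccne1, which drives entry into S phase, had 893 counts (22.8 CPM) in shcircCsnk1g3 cells and 963 (22.8 CPM) in shCTR cells, a log2 fold change of 0.00 (-0.13 to 0.13). Csnk1g3, the host gene of the targeted circRNA, had 2159 and 2411 counts, which stand for the linear transcript since a circRNA has no poly(A) tail.

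Trp53 mRNA was abundant in both libraries in spite of the knockout. It had 3841 counts (97.9 CPM) in shcircCsnk1g3 cells and 4334 counts (103 CPM) in shCTR cells. The 2 levels were close (log2 fold change -0.07, -0.13 to 0.00, the upper bound just under 0), and 73.1% of the well counted genes lay at least as far from 0. Trp53 (ENSMUSG00000059552) spans chr11:69580359-69591873 on the plus strand (all gene coordinates are GRCm38), and 1 of its 6 annotated transcripts, of 1771 bases, has 11 exons with the coding sequence starting in exon 2. The count is a sum over the whole gene, so it cannot show whether reads came from the part removed in the knockout or from what remains, and it was not a check of the genotype. The pseudogene Trp53-ps shares 353 bases with Trp53 at 97.7% identity and has no row of its own in the count table, so a part of these reads could belong to it.

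Mdm2, the ubiquitin ligase that marks p53 for degradation, was slightly higher in shcircCsnk1g3 cells. It had 3029 counts (77.2 CPM) there and 2970 counts (70.3 CPM) in shCTR cells, a log2 fold change of 0.14 (0.06 to 0.21). That distance from 0 was reached or passed by 50.1% of the well counted genes, so it stood in the middle of them. Mdm2 (ENSMUSG00000020184) lies at chr10:117688875-117710758 on the minus strand.

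Cdkn1a and Ccng1 held the members' largest differences among those with 200 summed counts or more, apart from Bbc3, and they went in opposite directions. Cdkn1a encodes p21, the inhibitor of cyclin-dependent kinases that stops cells before S phase. It had 2071 counts (52.8 CPM) in shcircCsnk1g3 cells and 1515 counts (35.9 CPM) in shCTR cells. It was thus 1.47-fold higher after the hairpin against circCsnk1g3 (log2 fold change 0.56, 0.46 to 0.66), a place at or above which lay 2.20% of the well counted genes. Ccng1 encodes cyclin G1, a partner of protein phosphatase 2A that acts back on Mdm2. It had 1184 counts (30.2 CPM) in shcircCsnk1g3 cells and 1786 counts (42.3 CPM) in shCTR cells, which is 1.40-fold lower, with a log2 fold change of -0.48 (-0.59 to -0.38). Of the well counted genes, 4.52% were at or below it. Cdkn1a (ENSMUSG00000023067, chr17:29090976-29100727, plus strand) shares 273 exon bases, 7.68% of its exons, with AC167363.2 on the opposite strand, which has no row in the count table, and the counting's strand setting was not given. Ccng1 (ENSMUSG00000020326) lies at chr11:40748552-40755311 on the minus strand.

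**Figure D1:**
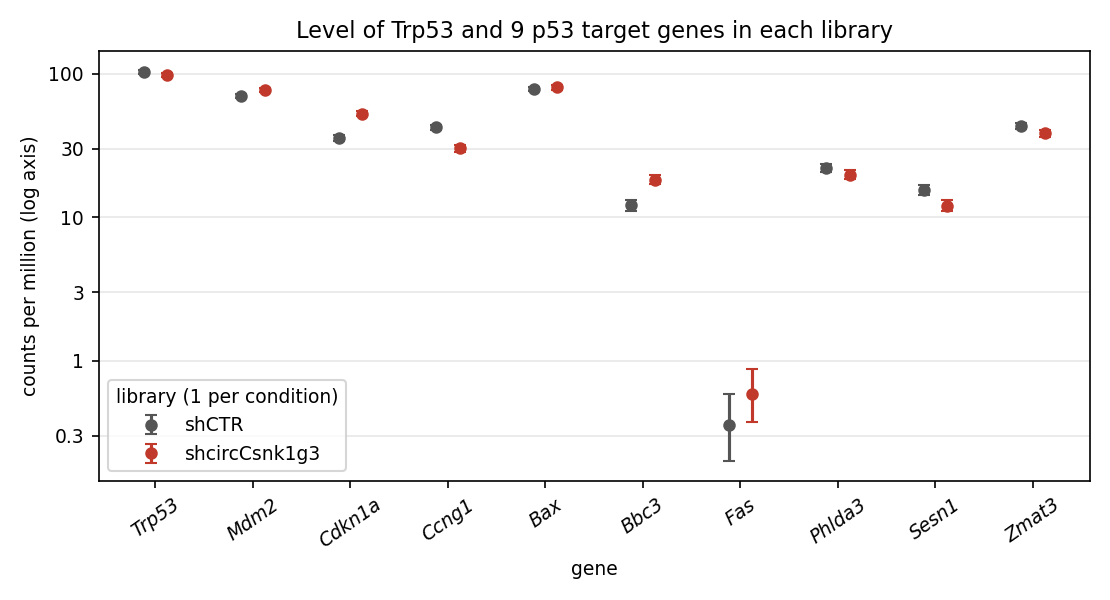
Level of each gene in the shCTR (grey) and shcircCsnk1g3 (red) libraries, in CPM on a log axis, 1 library per condition, with bars for the 95% Poisson interval of the count. Mdm2, Cdkn1a and Bbc3 sit higher and Ccng1, Sesn1 and Zmat3 lower in shcircCsnk1g3 cells without overlap of their bars, and Fas lies far below the rest at 0.355 and 0.587 CPM.

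The cell death genes did not move together. Bax, the pore former of the mitochondrial outer membrane, had 3157 counts (80.5 CPM) in shcircCsnk1g3 cells and 3302 counts (78.2 CPM) in shCTR cells, a log2 fold change of 0.04 (-0.03 to 0.11). Counting error covers that difference, although by total counts alone the interval of Bax lay above 0. Bax (ENSMUSG00000003873, chr7:45461697-45466898, minus strand) shares 192 exon bases, 12.2% of its exons, with Gm45808 on the same strand, which has no row in the count table. Bbc3 encodes PUMA, a BH3-only protein that sets Bax free by binding its inhibitors. It had 717 counts (18.3 CPM) in shcircCsnk1g3 cells and 513 counts (12.1 CPM) in shCTR cells, higher by just over the 1.5-fold line, with a log2 fold change of 0.59 (0.43 to 0.76). Only 1.95% of the well counted genes were at or above Bbc3 (ENSMUSG00000002083, chr7:16308393-16318205, plus strand).

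Fas, the death receptor on the cell surface, was close to the limit of the data. It had 23 counts (0.587 CPM) in shcircCsnk1g3 cells and 15 counts (0.355 CPM) in shCTR cells. The fitted log2 fold change was 0.65, the highest of the members, but its interval ran from -0.28 to 1.77, so a difference in Fas was not detectable at this depth. Phlda3, which competes with the kinase Akt for membrane lipids, had 777 counts (19.8 CPM) in shcircCsnk1g3 cells and 927 counts (21.9 CPM) in shCTR cells, a log2 fold change of -0.15 (-0.29 to -0.01). The interval of Phlda3 only just left 0. Fas (ENSMUSG00000024778) lies at chr19:34290666-34327772 and Phlda3 (ENSMUSG00000041801) at chr1:135766119-135769136, both on the plus strand.

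Sesn1 and Zmat3 were lower in shcircCsnk1g3 cells. Sesn1 encodes sestrin 1, which restrains the growth kinase complex mTORC1. It had 472 counts (12.0 CPM) in shcircCsnk1g3 cells and 652 counts (15.4 CPM) in shCTR cells, a log2 fold change of -0.36 (-0.53 to -0.19), and 7.72% of the well counted genes were at or below it. Zmat3, an RNA-binding zinc finger protein that alters splicing, had 1504 counts (38.4 CPM) and 1825 counts (43.2 CPM) in the same order. Its log2 fold change was -0.17 (-0.27 to -0.07), and 40.7% of the well counted genes lay at least as far from 0. Sesn1 (ENSMUSG00000038332) lies at chr10:41809935-41908424 on the plus strand and Zmat3 (ENSMUSG00000027663) at chr3:32334792-32366014 on the minus strand.

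**Figure D2:**
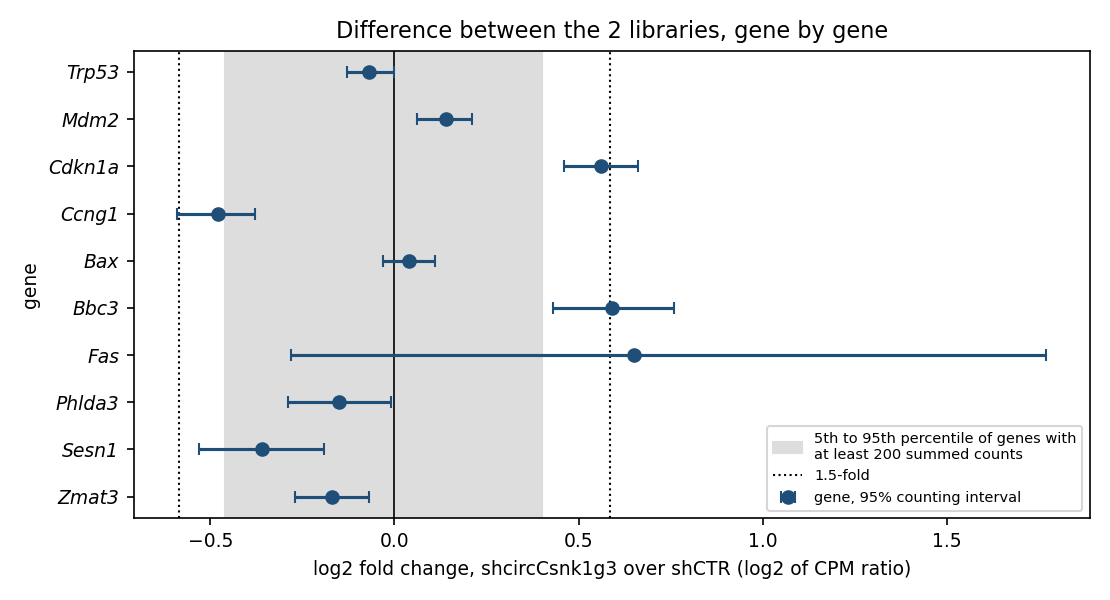
Log2 fold change of each gene, shcircCsnk1g3 over shCTR, with its 95% counting interval as a bar, dotted lines at 1.5-fold in either direction, and a grey band from -0.46 to 0.40, the 5th to 95th percentile of the genes with at least 200 summed counts. Cdkn1a and Bbc3 lie above the band and Ccng1 at -0.48 just below it, with the other well counted genes inside. The point of Fas, which is under 200 summed counts, lies above the band, but its interval of -0.28 to 1.77 reaches into it.

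Read as a group, the 10 genes were split evenly, with 5 higher and 5 lower in shcircCsnk1g3 cells and a median log2 fold change of -0.01. The sign of so small a median turned with the scaling, to 0.02 by total counts alone. Past 1.5-fold, 2 of the 10 were higher, Bbc3 and Fas, where 5.39% of the genes tested were, and 0 were lower, where 6.31% were. Of the 9 members with at least 200 summed counts, 1 was past 1.5-fold higher, against 1.99% of genes at that minimum, and 0 were lower, against 3.14%. Bbc3 stood almost exactly on that line, and by total counts alone Cdkn1a passed it too, which made 3.

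The interval lay above 0 for 3 of the 10 (Mdm2, Cdkn1a and Bbc3), beside 26.9% of the genes tested. It lay below 0 for 5 (Trp53, Ccng1, Phlda3, Sesn1 and Zmat3), beside 28.2%. For well counted genes the shares were 29.5% above and 31.0% below, against 3 and 5 of 9 members. The share above was near the background, and by total counts alone Bax joined it, which made 4. Of the 5 below, 3 (Ccng1, Sesn1 and Zmat3) remained by total counts alone or with a 99% interval, and Trp53 and Phlda3 did not. In bulk RNA, a change in the share of cells that express a gene and a change in the RNA per cell cannot be told apart.

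**Figure D3:**
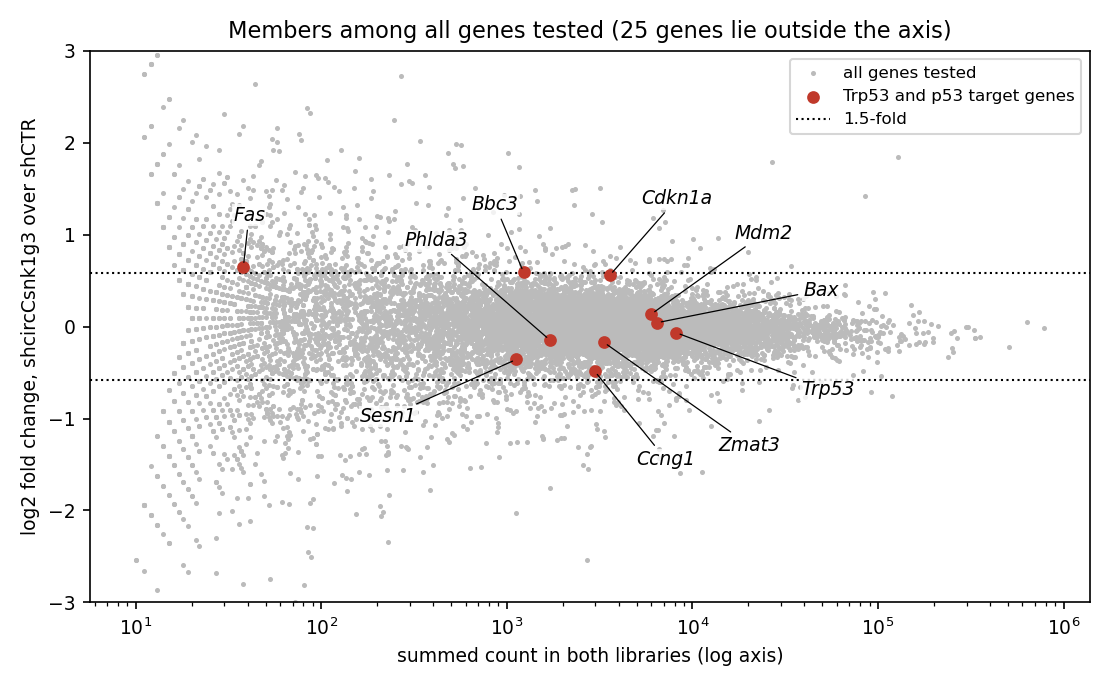
Log2 fold change of the 12941 genes tested (grey) against the summed count of both libraries on a log axis, with the 10 genes in red and dotted lines at 1.5-fold. 25 genes lie outside the vertical axis, and Fas sits at the left where the scatter of all genes is widest, while the other 9 have enough counts to fall in its narrower part.

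Levels of different genes were compared as CPM per kilobase of merged exons. In shCTR cells the order ran from Bax at 49.6, Trp53 at 25.4, Phlda3 at 14.1 and Mdm2 at 13.8 to Ccng1 at 12.0 and Cdkn1a at 10.1, and then to Bbc3 at 5.72, Sesn1 at 3.88, Zmat3 at 3.78 and Fas at 0.172. Neighbours were apart by more than counting error except for Phlda3 and Mdm2, and for Sesn1 and Zmat3. Among the 15270 genes with a count and a length, Bax stood at percentile 93.7 and Trp53 at 86.4, while Fas stood at 21.3. All but Fas, Sesn1 and Zmat3 were in the upper part of expressed genes, from percentile 56.6 for Bbc3 upward.

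In shcircCsnk1g3 cells the top and the bottom of that order were as in shCTR, with Bax at 51.1, Trp53 at 24.2 and Fas at 0.284. Cdkn1a, at 14.9 (14.2 to 15.5), stood beside Mdm2, at 15.2 (14.7 to 15.7), and above Phlda3, at 12.7. Ccng1 was at 8.60 and Bbc3 at 8.61. This order depends on the length used. With the longest transcript of each gene, Cdkn1a, at 17.2, was above Phlda3, at 15.3, and Ccng1, at 12.0, in shCTR cells as well, and in shcircCsnk1g3 cells Bbc3 was at 10.1 with Ccng1 at 8.60.

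The regulators and relatives of p53 were looked at next. Of 23 regulators, 22 were tested. Of these, 12 were higher and 10 lower in shcircCsnk1g3 cells, with a median log2 fold change of 0.04. The interval was above 0 for 9 and below 0 for 6, beside 29.5% and 31.0% of well counted genes. Past 1.5-fold there was 1 of the 22, all of them well counted, beside 1.99% of well counted genes that were higher, namely Ppp1r13b, which encodes ASPP1, a protein that steers p53 toward cell death genes. It had 124 counts in shcircCsnk1g3 cells and 87 in shCTR cells, a log2 fold change of 0.61 (0.21 to 1.03). Of the p53 relatives, Trp63 had 29 and 24 counts, and Trp73 had 0 in both libraries, which allows up to 3 counts, or 0.0765 CPM in shcircCsnk1g3 cells and 0.0710 CPM in shCTR cells.

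Of 54 further p53 targets, 50 were tested, of which 30 were higher and 20 lower in shcircCsnk1g3 cells (median 0.04). Over all 12941 genes tested, 6521 were higher. Of the 50 targets, the interval lay above 0 for 16, beside 26.9% of all genes tested, below 0 for 10, beside 28.2%, and held 0 for 24. Past 1.5-fold, 2 were higher, beside 5.39% of all genes tested, and 5 lower, beside 6.31%. Of the 47 that were well counted, 2 were higher, beside 1.99%, and 4 lower, beside 3.14%. The cell cycle targets held both of those that were higher. Gadd45a, a stress-induced inhibitor of the cell cycle, had 4401 counts in shcircCsnk1g3 cells and 2897 in shCTR cells, a log2 fold change of 0.71 (0.64 to 0.78). Btg2, an antiproliferative gene, had 232 and 155 counts, a log2 fold change of 0.68 (0.39 to 0.99). Gtse1, a microtubule-binding protein of G2 that counters p53, went the other way with 1308 counts against 2550, a log2 fold change of -0.85 (-0.95 to -0.76). Of the 8 cell cycle targets tested, 5 were higher and 3 lower (median 0.12). Their interval lay above 0 for 4, beside 26.9% of all genes tested, below 0 for 1, beside 28.2%, and held 0 for 3.

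The metabolism and autophagy targets held 3 of the 5 that were lower past 1.5-fold, 3 of 16 genes that were all well counted, beside 3.14% of such genes. Ulk1, the kinase that starts autophagy, had 935 counts in shcircCsnk1g3 cells and 1894 in shCTR cells, a log2 fold change of -0.91 (-1.03 to -0.80). Sco2, needed to assemble cytochrome c oxidase, had 305 and 581 counts, a log2 fold change of -0.82 (-1.03 to -0.62). Aldh4a1, a mitochondrial enzyme of proline breakdown, had 337 and 555 counts, a log2 fold change of -0.61 (-0.81 to -0.41). Of the 16 tested genes of that list, 7 were higher and 9 lower, and the median was -0.02. The interval was above 0 for 2, beside 29.5% of well counted genes, and below 0 for 6, beside 31.0%.

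Of the cell death and DNA repair targets with at least 200 summed counts, 0 passed 1.5-fold, a result near the 1.99% higher and 3.14% lower of all genes at that minimum. Of 16 cell death targets tested, 10 were higher and 6 lower (median 0.06). The interval lay above 0 for 5, beside 26.9% of all genes tested, below 0 for 2, beside 28.2%, and held 0 for 9 of them. Among those with at least 200 summed counts, they ran from Tnfrsf10b, a receptor for the death ligand TRAIL, at -0.38 (-0.47 to -0.29) to Trp53inp1, at 0.47 (0.20 to 0.74). The lowest of the list, and the fifth gene past 1.5-fold in the lower direction, was Trp53i11, with 0 counts in shcircCsnk1g3 cells and 16 in shCTR cells. Taking 3 counts as the floor of the empty library, it was at least 4.95-fold lower if the 16 counts are taken as exact, and its interval, which allows for their counting error, reached up to -1.84 on the log2 scale. Of 10 DNA repair targets, 8 were higher and 2 lower (median 0.16). The interval lay above 0 for 5, beside 26.9% of all genes tested, below 0 for 1, beside 28.2%, and held 0 for 4. They ran from Polh, a polymerase that copies past ultraviolet damage, at -0.34 (-0.44 to -0.25) to Xpc, a sensor of DNA lesions, at 0.44 (0.29 to 0.59).

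Some p53 targets are also known targets of ATF4 or CHOP, transcription factors of the integrated stress response that act without p53. Of a list of 8 genes, all but Trib3 also in the lists above or among the members, 7 were tested, and 6 were higher and 1 lower in shcircCsnk1g3 cells. The median log2 fold change was 0.35, where that of all genes tested was 0.00. The interval lay above 0 for 6, beside 29.5% of well counted genes, and below 0 for 1, beside 31.0%. Past 1.5-fold, 3 of the 7, all well counted, were higher, beside 1.99%, and 0 lower, beside 3.14%. These were Bbc3 and Gadd45a, given above, and Trib3, while the gene that was lower was Tnfrsf10b, at -0.38 (-0.47 to -0.29). Trib3, a pseudokinase known as a target of ATF4 and CHOP and in no other p53 target list here, had 6886 counts in shcircCsnk1g3 cells and 4091 in shCTR cells, a log2 fold change of 0.86 (0.80 to 0.91). Without Trib3 the median of the other 6 tested was 0.29, and the interval lay above 0 for 5. The list was chosen with earlier results of these data known and takes in Bbc3 and Gadd45a from above, so its median and counts are not an independent result. Which factor acted on these genes was not tested.

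p21 holds cyclin-dependent kinases in check and thereby lets the DREAM complex repress genes of S phase and mitosis. Of 24 genes known to be repressed in this way, 22 were lower and 2 higher in shcircCsnk1g3 cells. Whether the level of Cdkn1a had a part in this was not tested. The interval was below 0 for 20 and above 0 for 0 of the 24, beside 31.0% below and 29.5% above over well counted genes. All 24 are well counted, and such a count depends on depth. This list too was chosen with earlier results of these data known. The differences were small. The median was -0.13, and the list ran from Cenpa, the centromeric histone, with 3865 and 5448 counts and a log2 fold change of -0.39 (-0.45 to -0.33), to Cdc25c, a phosphatase that activates Cdk1, at 0.09 (-0.04 to 0.22). Of the 24, 0 passed 1.5-fold, beside 1.99% higher and 3.14% lower of all well counted genes. By total counts alone the median was -0.09, and that of all genes was then 0.03.

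**Figure D4:**
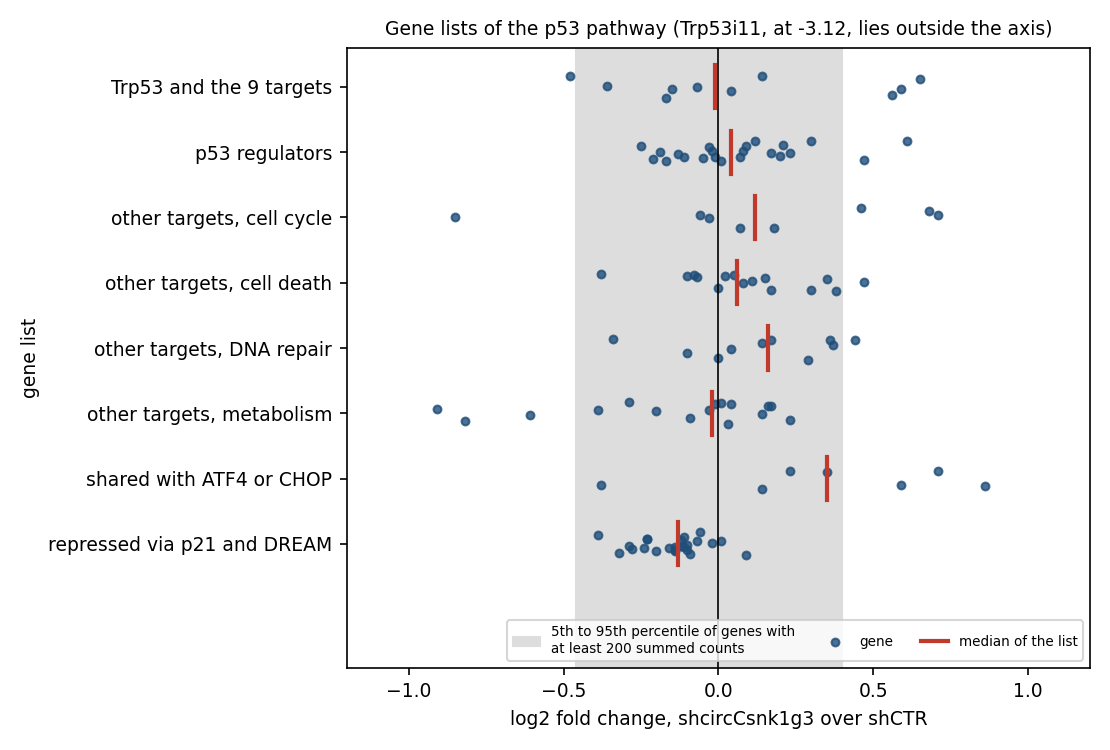
Log2 fold change of each tested gene (points), shcircCsnk1g3 over shCTR, in 8 gene lists of the p53 pathway, with the list median as a red line and a grey band from -0.46 to 0.40 for the middle of the genes with at least 200 summed counts. The median of the list shared with ATF4 or CHOP lies at 0.35 (0.29 without Trib3, which is in no other p53 target list here). That of the genes repressed through p21 and DREAM lies at -0.13, while Trp53 and its 9 targets spread to both sides of 0. All lists were chosen with earlier results of these data known.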

How the data were processed

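The deposited count table gives estimated counts per gene, rounded to whole numbers. Per the study's methods the authors made TruSeq Stranded mRNA libraries and used bcl2fastq, STAR 2.6.1 with GRCm38 and a GENCODE annotation, and RSEM 1.2.28, which divides reads shared between genes. The release and the strand setting are not given in the sources used here. The deposited TMM-scaled CPM table (edgeR 3.30) holds 11624 genes, Fas not among them, and was an alternative. The 92 spike-in rows, all 0, were left out.

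TMM factors came from edgeR 4.0.16 under R 4.3.3, from genes that reached 10 counts in either library. Intervals and figures used scipy 1.17.1, numpy 2.4.6, pandas 2.3.3 and matplotlib 3.10.9. They cover neither variation between cultures nor amplification duplicates. Lengths and coordinates came from GENCODE M21 (25251 of 25509 identifiers found), promoter windows from RefSeq GRCm38.p6, and shared sequence (at least 200 bases at 95% identity or more) from blastn 2.17.0. Interval steps were tested on simulated counts.

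The members, gene lists and markers were chosen with earlier results of these data known. Genes named were the members, Ccne1, Csnk1g3 and, in each other list of the pathway, those past 1.5-fold with at least 200 summed counts, or else the highest and lowest gene at that minimum. Trp63, Trp73, Trp53i11, the markers named and the genes under the other observations fall outside this rule and were named after their values were seen. Alternatives were DESeq2 1.42.0 size factors, total counts, no count filter, 200 summed counts, the TMM-scaled table, prior counts of 0.5 and 10, 2-fold, a 99% interval and the longest transcript. Leaving Trib3 out of its list was added after seeing the data.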

Additional observations from a re-analysis of the deposited data

How the results depend on the processing

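No paired analysis was possible because each condition had a single library, and for the same reason none could be left out. The members' log2 fold changes kept their direction and moved within counting error in 68 of 68 recomputed values. The 63 recomputed list medians moved little, but by total counts alone the sign of a median near 0 turned in 2 lists, the members' as given above and that of the metabolism and autophagy targets from -0.02 to 0.01. The count of members past 1.5-fold higher, 2, became 1 with at least 200 summed counts or in the deposited TMM-scaled table, both without Fas, and 0 with a prior count of 10 or at 2-fold. The count with an interval below 0, 5, became 3 by total counts alone and 3 with a 99% interval. Over all genes, 698 higher and 817 lower past 1.5-fold became 1765 and 1468 with no count filter, 212 and 335 with at least 200 summed counts, 349 and 523 in the TMM-scaled table, and 275 and 330 at 2-fold. Of 20 levels per length, 6 stayed within their counting interval with the longest transcript, by the construction of that alternative.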

Other observations

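Values of these genes were chosen after they were seen. The 3 sestrins, which restrain mTORC1, did not share a direction: Sesn1 was at -0.36 and Sesn3 at -0.39 (212 counts in shcircCsnk1g3 cells and 300 in shCTR cells, interval -0.65 to -0.13), while Sesn2 was at 0.23 with 6756 and 6216 counts. Bak1, the other pore former beside Bax, was at 0.17 (0.10 to 0.24). Mdm4, the partner of Mdm2, was at 0.23 (0.15 to 0.32), with 2565 and 2350 counts, and Sirt1, a deacetylase of p53, at 0.47 (0.37 to 0.58). Of the 6 regulators with an interval below 0, Atm, the kinase that signals DNA breaks to p53, was at -0.25 (-0.34 to -0.17), and Hipk2, a kinase that phosphorylates p53, was at -0.21 (-0.30 to -0.12).

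Cdkn2a, whose ARF product holds Mdm2 back, had 0 counts in both libraries, as had the p53 targets Perp, Gdf15 and Rprm. A count of 0 allows up to 3 counts, which is 0.0765 CPM in shcircCsnk1g3 cells and 0.0710 CPM in shCTR cells.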
